A study of Drosophila melanogaster and Drosophila persimilis and Drosophila pseudoobscura with 5 samples.

Results

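The hearing organ of Drosophila pseudoobscura was compared with that of Drosophila yakuba, gene by gene, in a table that holds both species under D. melanogaster gene symbols. Of 8180 genes in the table, 4982 had a mean signal of at least 5 over its 5 libraries and were compared as log2(signal + 1). A gene was taken as higher or lower when the D. pseudoobscura library differed from the D. yakuba library by at least 4-fold, a log2 difference of at least 2 on that scale. By this rule 449 genes were higher in D. pseudoobscura and 591 were lower, 1040 in all. These are 9.01%, 11.9% and 20.9% of the compared genes. The fold chose the genes, so it is given as a description and not as a test.

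The study sequenced RNA of Johnston's organ from adult flies of 5 species, with 1 library per species. Both species compared here were raised at 25 °C, and their reads were assigned to each species' own annotation, release 2.30 for D. pseudoobscura and release 1.3 for D. yakuba. The other 3 libraries came from D. melanogaster, D. simulans and D. persimilis, raised at the same temperature. The sources used here do not give strain, sex or the number of flies or antennae. With 1 library per species no difference has a replicate check, no p-value is given, and species and library cannot be told apart.

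Johnston's organ fills the second antennal segment and senses sound, gravity and wind. Its chordotonal units each join ciliated neurons to a scolopale cell that encloses the cilia and to a cap that links them to the antennal joint, which the outer segments turn. Transduction channels of the TRP family and axonemal dynein motors sit in these cilia. D. pseudoobscura and D. persimilis belong to the obscura species group, and D. yakuba, D. melanogaster and D. simulans to the melanogaster species group.

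The D. yakuba library held 13916387 counted reads and the D. pseudoobscura library 12908479. The other 3 libraries held 7580214 to 22391819. The summed signal of the table was 760338 in D. yakuba and 859740 in D. pseudoobscura, at a 75th percentile of 34.3366 in both. Each marker list, here and below, held genes not found in the table, and only those found were counted. Markers of the organ were present at low signal. For the organ's neurons and cilia 5 markers summed to 91.3 in D. yakuba and 36.7 in D. pseudoobscura, with Rootletin listed at 0 in D. pseudoobscura. For scolopale and support 4 markers summed to 57.6 and 147. Both sums hold nompA, a matrix protein made by support cells, at 0.632 in D. yakuba and 5.06 in D. pseudoobscura. Of the 5 neuron and cilia markers 3 were higher in D. yakuba and 2 in D. pseudoobscura. All 4 support markers were higher in D. pseudoobscura. The wider list of chordotonal support genes, described below, did not share this direction. Of its 8 compared members 4 were above D. yakuba and 4 below, with a median log2 difference of -0.71. Markers of other tissues were present too. Markers of the olfactory segment of the antenna, 7 in number, summed to 30579 in D. yakuba and 71608 in D. pseudoobscura, with Or88a at 0 in D. yakuba and Or67d at 0 in D. pseudoobscura, and 7 muscle markers summed to 9032 and 8338. Of the muscle markers 2 were higher in D. yakuba and 5 in D. pseudoobscura, and of the olfactory ones 3 and 4. In bulk tissue, fewer cells of a type and less RNA per cell cannot be told apart.

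The differences between the libraries were broad. The median log2 difference over all compared genes was -0.07, and the Spearman correlation of the signal across these genes, which are not independent replicates, was 0.67. Of the higher genes 397 were above 0 in both libraries and 52 were listed at 0 in D. yakuba. Of the lower genes 468 were above 0 in both and 123 were listed at 0 in D. pseudoobscura. Because a gene may be listed at 0 for want of a match between annotations, no fold is given for those genes. The higher genes made up 2.51% of the summed signal in D. yakuba and 17.5% in D. pseudoobscura. The lower genes made up 15.7% in D. yakuba and 1.39% in D. pseudoobscura. At 2-fold the counts were 1122 higher and 1289 lower, at 16-fold 67 and 119, and at 64-fold 14 and 15.

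**Figure D1:**
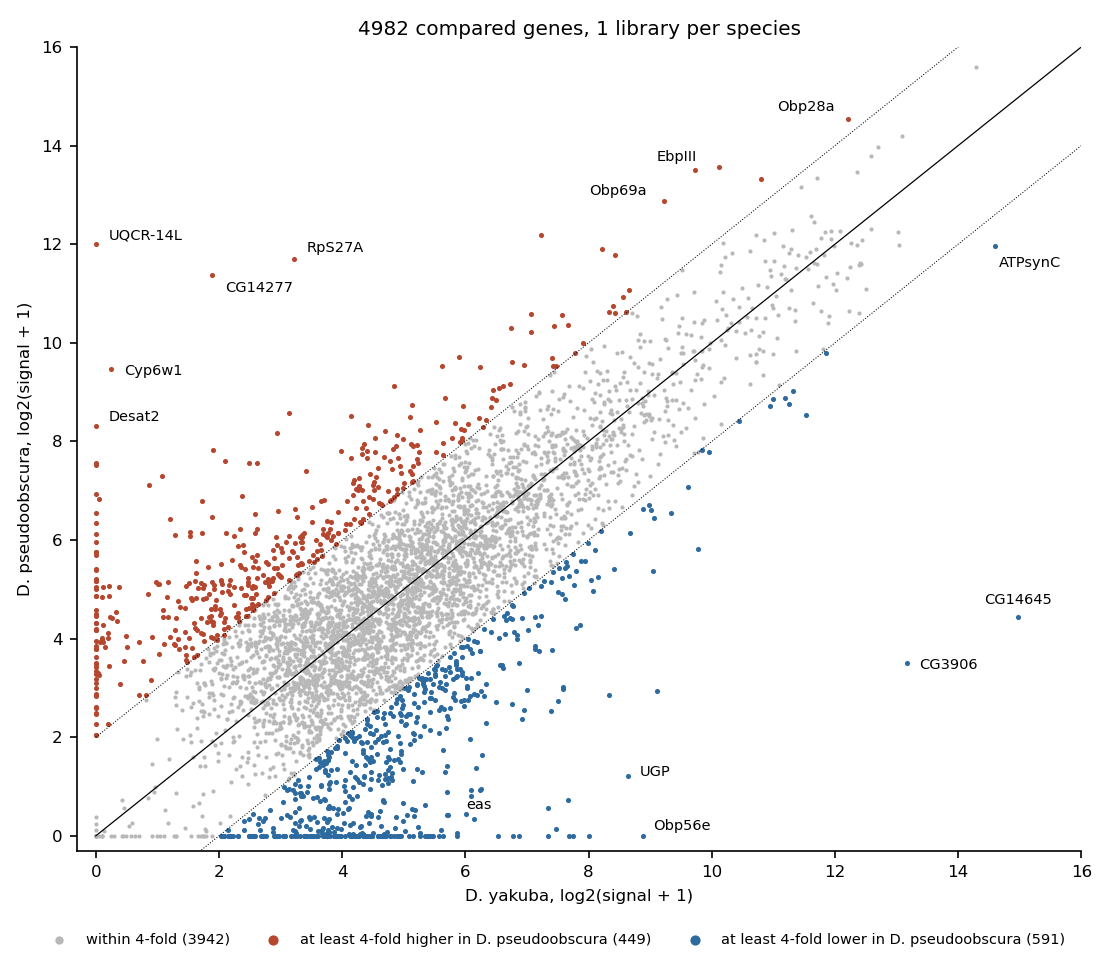
Signal of the 4982 compared genes in D. yakuba (x axis) and D. pseudoobscura (y axis), both as log2(signal + 1), 1 point per gene. The solid line marks equal signal and the dotted lines the 4-fold limits. Points at 0 on a scale are genes listed at 0 in that library, and the 449 higher genes and 591 lower genes lie outside the dotted lines.

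The largest differences among genes above 0 in both libraries were led, on the higher side, by a small gene without an assigned role, a cytochrome P450 and a ribosomal protein. Where 5 signals follow a gene they stand in a fixed order, namely D. melanogaster, then D. simulans and D. yakuba, then D. pseudoobscura and D. persimilis. In a pair of values joined by against, D. yakuba stands first. CG14277 (BDGP6 2L:8242486-8243426, whose exons overlap another gene) had signals of 0.972, 0, 2.71, 2647 and 523, a log2 difference of 9.48. Both obscura group libraries were high and the other 3 were low. Cyp6w1 (2R:6173684-6176195), a cytochrome P450, had signals of 667, 384, 0.192, 711 and 682, a log2 difference of 9.22. Here D. yakuba alone was low. RpS27A (2L:10408352-10410456), which encodes ubiquitin fused to a small-subunit ribosomal protein, had the same pattern, at 2844, 4657, 8.29, 3344 and 4412. Its log2 difference was 8.49.

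Among the 15 largest higher differences, 7 besides CG14277 had both obscura group libraries above the other 3 on the same side of the midpoint between D. yakuba and D. pseudoobscura, CG5103 and Cyp6a19 among them. CG5103 had signals of 0.896, 0, 0.0321, 113 and 118. Cyp6a19, another cytochrome P450, had 0.0941, 7.02, 1.11, 157 and 279. In both genes the lowest obscura group signal was far above the highest of the other 3. For Cyp6d5, a further P450, D. yakuba at 1.30 lay below all other libraries, which ranged from 85.2 in D. pseudoobscura to 462 in D. melanogaster. CtsL3 (listed as CG11459), a relative of the lysosomal protease cathepsin L, had 13.5, 22.3, 0.827, 137 and 102.

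The lower genes were led by a pair of abundant D. yakuba transcripts. CG14645 (3R:4335098-4335506, whose exons overlap another gene) had the highest signal of the lower genes, at 0, 3199, 31998, 20.8 and 4082, a log2 difference of -10.52. D. yakuba was highest and D. melanogaster was listed at 0, while D. persimilis was far above D. pseudoobscura. CG3906 (2R:23511286-23512225) had signals of 277, 282, 9165, 10.4 and 13305, a log2 difference of -9.65. D. persimilis and D. yakuba were both high there, and D. pseudoobscura was the lowest of all.

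Several enzymes and receptors of known role followed. UGP (3L:9350867-9358935), which makes UDP-glucose, had signals of 173, 486, 396, 1.33 and 2.87, and Ance-4, a relative of angiotensin-converting enzyme, had 54.0, 55.9, 162, 0.470 and 0.109. In both genes the obscura group libraries were low and did not overlap the other 3. The ethanolamine kinase gene eas (X:16278328-16285618), whose D. melanogaster mutants have seizures after a mechanical shock, had 67.7, 59.1, 69.9, 0.263 and 21.1. D. pseudoobscura stood lowest, with D. persimilis between it and the others. SPR, the sex peptide receptor, had 13.6, 2.50, 56.9, 0.0450 and 0.231, and Btk, a Tec family tyrosine kinase, had 4.46, 1.97, 47.9, 0.0832 and 1.93. For both, D. yakuba was the highest library and D. pseudoobscura the lowest. The exons of UGP, SPR and Btk overlap other genes, and the strand setting of the counting is not given, so reads of the overlapping genes cannot be told apart.

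**Figure D2:**
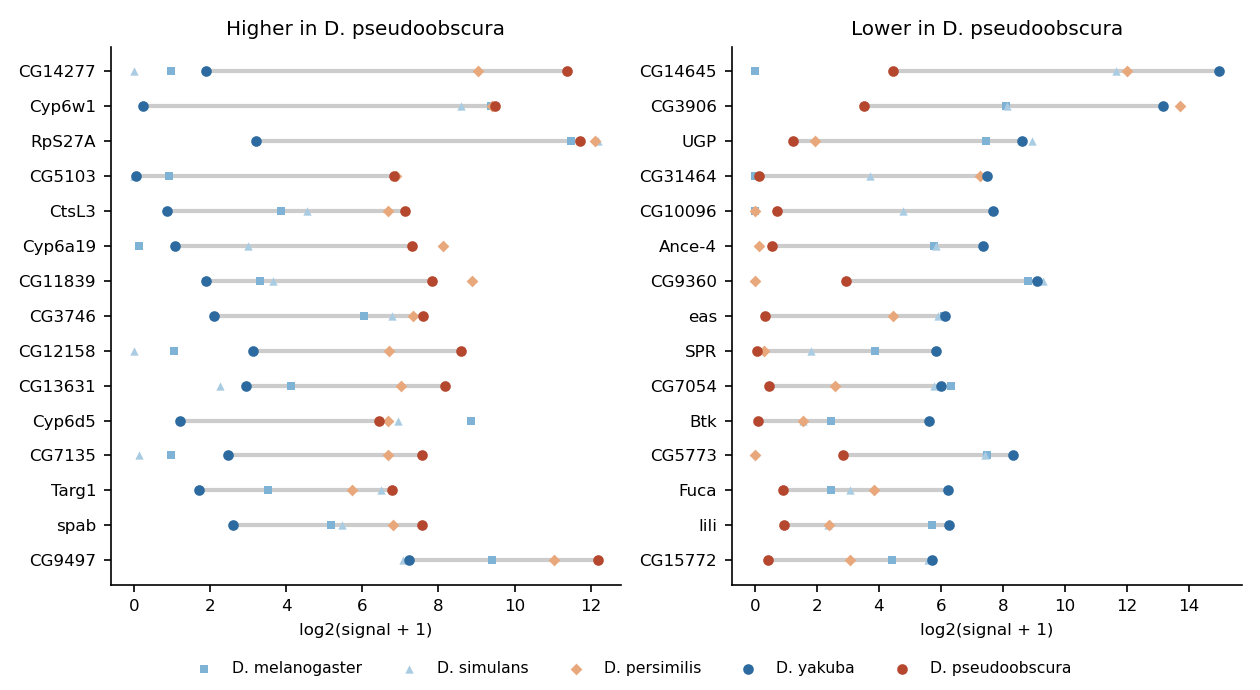
Signal in all 5 libraries, as log2(signal + 1), for the 15 genes with the largest difference in each direction among genes above 0 in both compared libraries. Each row is a gene, each point a library, and the bar joins D. yakuba to D. pseudoobscura. D. persimilis lies near D. pseudoobscura for most but not all genes, as CG14645 and CG3906 show.

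Genes with a difference also included some of the most abundant transcripts. EbpIII (listed as PebIII), a small secreted chemosensory protein of antenna and ejaculatory bulb, had signals of 5040, 4108, 1109.6, 12159 and 10017, a log2 difference of 3.45. OS9, an antennal gene of the olfactory segment in D. melanogaster, had 1026, 1628, 1785, 10191 and 14377, a log2 difference of 2.51. The obscura group libraries were the highest in both. Tsp42Ed, a tetraspanin membrane protein, had 151, 495, 342, 3541 and 3656. On the lower side Eno, the glycolytic enzyme enolase, had 772, 2953, 2960, 372 and 766, a log2 difference of -2.99. D. pseudoobscura was the lowest, with D. melanogaster and D. persimilis close to each other above it.

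Some genes were listed at 0 in 1 of the compared libraries and high in the other. UQCR-14L (3R:28294048-28294550), a paralogue of the UQCR-14 subunit of respiratory complex III, had signals of 0.134, 0.405, 0, 4132 and 5981. Desat2, a fatty acid desaturase for cuticular hydrocarbons, had 319 in D. pseudoobscura and 392 in D. persimilis, and at most 2.0 in the others. For such genes a different level and a different family member matched cannot be told apart. In the other direction Vajk4 was listed at 0 in D. pseudoobscura and had 257 in D. yakuba, and CG3301 was at 0 and 161.

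The odorant-binding proteins, small proteins secreted around sensory dendrites, had members far apart in both directions. Of 24 compared, 7 were higher and 5 were lower, with a median of 0.79 against -0.07 for all compared genes. Such counts, here and for the lists below, stand beside 9.01% higher and 11.9% lower over all compared genes. Their summed signal was 44490 in D. yakuba and 111640 in D. pseudoobscura. Obp28a (listed as Pbprp5; 2L:7496791-7497365) had signals of 853, 2171, 4741, 23698 and 12384, a log2 difference of 2.32. Obp69a (listed as Pbprp1; 3L:12396171-12396957), which binds a male pheromone in D. melanogaster, had 939, 659, 600.5, 7489 and 1177, a log2 difference of 3.64. D. pseudoobscura was highest for both, and for Obp69a D. persimilis lay near the melanogaster group. Obp49a, a suppressor of sweet taste by bitter compounds in D. melanogaster, had 14.5, 4.47, 34.1, 429 and 367.

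A cluster on arm 2R held 3 of the higher members. Obp58b had signals of 108, 5.11, 5.11, 36.6 and 23.0. Its neighbours Obp58c and Obp58d were listed at 0 in D. yakuba and D. simulans, and had 189 and 53.2 in D. pseudoobscura. The lower members included Obp56e, at 137, 1354, 472, 0 and 0, Obp57c, at 850, 157, 204, 0 and 28.5, and Obp99a, at 55.6, 3347, 109, 0 and 6.32. All 3 were listed at 0 in D. pseudoobscura. These proteins are encoded by short genes, with a median exon length of 710 bases. With the trend of the difference on exon length removed, 4 members were higher and 5 lower, and the median was 0.19. Over the 17 above 0 in both libraries 5 were higher and 1 lower.

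Receptor genes of the antenna were seldom abundant enough to compare. Of 36 odorant receptors 13 were compared, of which 3 were higher and 2 lower, with a median of 0.99. The shares over all compared genes were 9.01% and 11.9%. Over the 9 above 0 in both libraries none was higher, 1 was lower and the median was 0.12. Or74a, Or45b and Or88a, the last a receptor for fly odours in D. melanogaster, were listed at 0 in D. yakuba and had 92.5, 21.6 and 21.1 in D. pseudoobscura. Or74a was also at 0 in D. melanogaster and D. simulans and had 45.2 in D. persimilis. The lower members were Or43a, at 30.6 in D. yakuba and 0.234 in D. pseudoobscura, and Or23a, at 12.3 and 0. Among 4 compared gustatory receptors Gr10a went from 0.0490 in D. yakuba to 14.2, and Gr21a, a part of the carbon dioxide receptor, from 13.1 to 1.53. CheB98a, of a chemosensory protein family, was at 0 in the 3 melanogaster group libraries and had 121 in D. pseudoobscura and 15.7 in D. persimilis. Of 2 compared ionotropic receptors none passed 4-fold.

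Detoxification enzymes differed in both directions, and so did the P450 genes. Their counts stand beside 9.01% higher and 11.9% lower over all compared genes. Of 30 compared cytochrome P450 genes 8 were higher and 4 lower, with a median of 0.68 and a summed signal of 1105 in D. yakuba and 3407 in D. pseudoobscura. With log2(signal + 5) 8 were higher and none lower. Besides Cyp6w1, Cyp6a19 and Cyp6d5, the higher members included Cyp6t3, at 43.8, 21.2, 27.8, 559 and 203, and Cyp28a5, at 107, 18.2, 22.2, 266 and 169. Cyp28c1 had 247 in both obscura group libraries and 33.6 in D. yakuba. Cyp9c1 was lower, at 19.5 against 1.29, as was Cyp12b2, at 20.8 against 1.81. Of 20 glutathione transferases, which conjugate toxins, 4 were higher and 2 lower, with a median of 0.00. Mgstl, a microsomal member, had 106 in D. yakuba and 1259 in D. pseudoobscura, and GstE12 had 2331 and 473. Of 9 carboxylesterases 2 were higher, alpha-Est8 at 4.39 against 41.8 and alpha-Est2 at 11.7 against 54.9, and none was lower. None of 5 UDP-glycosyltransferases passed 4-fold.

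Maltases, which split sugars, had 3 of 5 compared genes higher and 1 lower. Only 2 of the 5 were above 0 in both libraries, of which 1 was higher. Mal-B2 had signals of 58.6, 63.4, 133, 1536 and 769, with both obscura group libraries above the other 3. The adjacent Mal-B1 was listed at 0 in D. yakuba and had 31.0 in D. pseudoobscura, and Mal-A1, a midgut member, had 5.41 against 0. Fatty acid enzymes had 2 of 9 higher, Desat2 and Fatp3, and 1 lower, the elongase Baldspot at 121 against 20.3.

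For the hearing organ itself, none of 36 compared genes for mechanosensory channels, axonemal dyneins, ciliogenesis and chordotonal support was higher, and 6 were lower. Over all compared genes the shares were 9.01% higher and 11.9% lower. Requiring a mean signal of 20 or more left 16 of these genes, of which 1 was lower, and log2(signal + 5) gave 4 lower. The absence of higher genes depended on the limit on mean signal. With the mean taken over the compared libraries alone, 1 of 39 was higher and 7 were lower. Equal column totals gave 1 and 7 of 38, and no limit on mean signal gave 2 and 10 of 64. Among the channels nan, a TRPV subunit required for hearing in D. melanogaster, had signals of 13.4, 0.0834, 11.9, 7.15 and 7.13, a log2 difference of -0.66. The TRPA channel wtrw, needed for humidity sensing, had 77.9, 6.71, 75.2, 71.8 and 26.6, and ppk, a DEG/ENaC channel, had 11.0, 14.3, 14.6, 20.5 and 20.3. These 3 channels differed little between the compared libraries. The TRPA channel pain had 58.5, 17.9, 44.7, 5.77 and 5.92, a log2 difference of -2.76, and both obscura group libraries were the lowest. Channels under the level limit were nompC, the TRPN channel of hearing, at 1.71 in D. yakuba and 2.67 in D. pseudoobscura, Piezo at 2.81 and 4.28, and pyx at 4.29 and 0.

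Of 8 compared genes for axonemal dyneins and their assembly, 1 was lower. Ccdc114 (listed as CG14905), of the complex that docks outer dynein arms, had 16, 0.0957, 20.9, 0.933 and 0.777, a log2 difference of -3.50. CCDC151, of the same docking complex, had 11.1 in D. yakuba and 2.91 in D. pseudoobscura, and the outer arm intermediate chain Dnai2 had 64.6 and 21.8, both within 4-fold. The outer arm heavy chain Dhc93AB was nearly level, at 13.9 and 15.9. D. simulans was below D. melanogaster and D. yakuba for most dynein genes, with 0.0957 for Ccdc114 and 4.32 for Dhc93AB.

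The ciliary genes divided likewise. Rootletin, which builds the ciliary rootlet that hearing neurons need in D. melanogaster, had 14, 22.5, 12.4, 0 and 0.0618. The tubby protein gene ktub, which places TRPV channels in the cilia of the organ in D. melanogaster, had 13.4, 4.09, 24.9, 1.40 and 1.60, a log2 difference of -3.43. Both were low in the obscura group libraries and did not overlap the other 3. The kinesin-2 motor subunits Klp64D, Klp68D and Kap3 were all lower by less than 4-fold, at 37.2, 54.2 and 27.8 in D. yakuba and 11.2, 22 and 12.6 in D. pseudoobscura. On the other side IFT20, of the intraflagellar transport complex, had 32.8 and 117, and nompB, another transport subunit, 4.04 and 10.2. The median over 16 compared ciliary genes was -0.57, and its sign changed to 0.11 with a mean signal of at least 20 required.

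Support genes gave 2 lower members of 8 and 0 higher. Their median was -0.71, and 0.05 with a mean signal of at least 20 required. The integrin subunit if had 29.2, 16, 27.1, 1.18 and 8.03, and Mgat1, which starts complex N-glycans, had 22.1, 8.99, 19.9, 2.04 and 7.78. D. pseudoobscura was the lowest in both. The apical matrix protein gene pio had 46.9 in D. yakuba and 132 in D. pseudoobscura, and nrv2, a sodium pump subunit of the support cells in D. melanogaster, had 1223 and 1267. Among transcription factors Dll, which patterns the antenna, was higher, at 20.5, 0.553, 1.95, 26.6 and 9.16. The factor onecut was lower, at 6.5, 0, 19.3, 0.0217 and 2.20.

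Phototransduction genes gave the largest share of lower members of any list with at least 10 compared genes. Of 17 compared, 12 were lower and none was higher, with a median of -2.71. Of the 6 above 0 in both libraries 4 were lower, and the median over the 6 was -2.56. The other lower members were listed at 0 in D. pseudoobscura, where a missing match between annotations cannot be told from a low level. Several members met the limit on mean signal only through D. simulans, where the list summed to 7756, against 464 in D. yakuba and 151 in D. pseudoobscura. With the mean taken over the compared libraries alone, 10 members were compared and 8 were lower. ninaE, the main rhodopsin of the eye, had signals of 51.6, 4220.3, 146, 12.4 and 24.3. Arr2, the arrestin of photoreceptors, had 35.2, 1991, 91.3, 0 and 36.7, and Arr1 had 6.30, 430.4, 22.3, 3.40 and 46.5. D. pseudoobscura was the lowest library for all 3, and D. simulans was the highest. Galphaq, the G protein of phototransduction, had 25.4, 143, 24.1, 1.06 and 3.48. Of the 5 members that did not pass 4-fold, Cds had 75.9 in D. yakuba and 108 in D. pseudoobscura, and ninaB had 5.58 and 19.1. The others were inaC, at 1.0 and 0, and inaF-B and Rh5, both listed at 0 in both libraries. The 8 eye markers found in the table summed to 295 in D. yakuba and 15.8 in D. pseudoobscura. All 8 were higher in D. yakuba, and Arr2, inaD, Rh4, trp, trpl and Rh6 were listed at 0 in D. pseudoobscura. The sums were 107 in D. melanogaster, 7198 in D. simulans and 114 in D. persimilis. Whether eye tissue entered the D. yakuba library was not tested. Low signals bear on this count: it was 5 of 17 with log2(signal + 5).

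**Figure D3:**
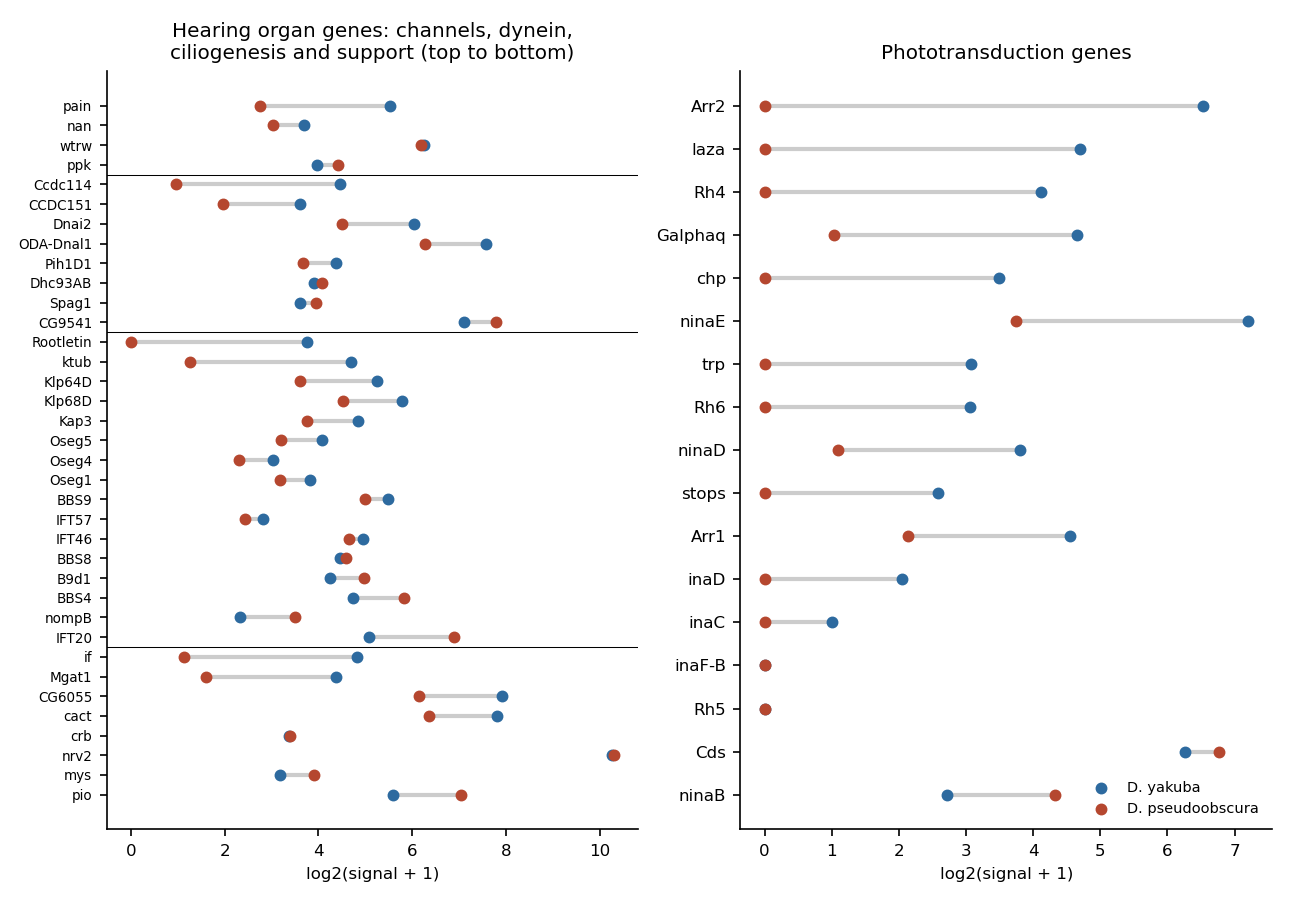
Signal as log2(signal + 1) in D. yakuba and D. pseudoobscura for the compared genes of the hearing organ (left, 36 genes in 4 groups) and of phototransduction (right, 17 genes). Each row is a gene and the bar joins the libraries. The hearing genes that passed 4-fold, 6 in number, all lie on the lower side, and 12 of the phototransduction genes do.

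Neuronal lists were mixed, and their counts were small beside shares of 9.01% higher and 11.9% lower over all compared genes. Of 14 voltage-gated channel genes 1 was higher, the inward rectifier Irk3 at 7.47 against 61.7. Of 16 synapse genes 1 was lower, the vesicular GABA transporter VGAT at 4.31 against 0.0800. Among 10 compared neuropeptide genes 3 were lower and 1 higher, with a median of -1.32, and with log2(signal + 5) 2 and none. Orcokinin had 57.3 in D. yakuba and at most 0.0929 in any other library, and Lk, which encodes leucokinin, had 11.0, 11.8, 56.2, 5.75 and 0. D. yakuba was the highest library for both. FMRFa was the higher one, at 7.04 against 37.1. Of 12 glial genes 1 was higher, drd at 2.38 against 32.9, and 2 were lower, the blood-brain barrier transporter Mdr65 at 39.0 against 6.59 and the astrocyte gene alrm at 56.7 against 10.7. The 6 glial markers found in the table summed to 301 in D. yakuba and 203 in D. pseudoobscura.

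The circadian clock had members on both sides. The activator cyc had signals of 47.6, 22.9, 99.1, 16.2 and 20.8, and the light sensor cry had 207, 77.4, 108, 24.8 and 19.2. Both were lower in the obscura group libraries than in D. melanogaster and D. yakuba. Pdp1 was lower as well, at 50 in D. yakuba and 8.51 in D. pseudoobscura. The repressor gene tim was higher, at 8.57, 16.6, 3.43, 17.9 and 12.1. The remaining 7 of 11 compared clock genes did not pass 4-fold, and the sources used here do not give the hour of dissection.

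Of 17 compared cuticular protein genes 6 were higher and 2 lower, with a median of 1.39, beside 9.01% and 11.9% of all compared genes. The counts were 2 and 1 with log2(signal + 5), 4 and 3 with the exon length trend removed, and the median was 0 with no limit on mean signal. Twdlalpha was listed at 0 in D. yakuba and had 53.4 in D. pseudoobscura, and obst-E, a chitin-binding protein, had 11.9 against 74.1. Cpr66D was lower, at 19.4 against 0. Of the yellow family, relatives of the pigment gene yellow, 5 were compared, 4 were lower and none was higher, and 2 were lower with log2(signal + 5). yellow-e had signals of 147, 21.9, 49.7, 1.45 and 4.95, and yellow-h had 230.2, 1.89, 38.3, 1.45 and 5.23. yellow-c, the most abundant, had 45.7, 67.2, 295, 71.9 and 61.2, so D. yakuba stood above the other 4. Pigment enzymes were split. The gene b, which makes beta-alanine for tanning, was lower at 82.6, 361, 191, 7.16 and 78.4, while Pu, the first enzyme of pteridine synthesis, was higher at 18.3 against 133.

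In energy metabolism none of 23 complex I genes and none of 8 cytochrome c oxidase genes passed 4-fold, where 20.9% of all compared genes did. ATPsynC (listed as CG1746; 3R:31216145-31219630), the membrane ring subunit of ATP synthase, was lower, at 6014, 28729, 24833, 3968 and 26411, a log2 difference of -2.65. D. melanogaster lay close to D. pseudoobscura, and the other 3 libraries were high. The remaining 8 ATP synthase genes did not pass 4-fold, and the median over 9 was -0.88. Of 51 cytosolic ribosomal protein genes 4 were higher and 1 lower, with a median of 0.40, and of 54 mitochondrial ones also 4 and 1, with a median of 0.28. Both medians changed sign with the exon length trend removed, to -0.11 and -0.08. RpS20 had 1099, 2935, 297, 3827 and 6365, so D. yakuba was low, as for RpS27A. Of 23 proteasome genes Prosbeta2 was higher, at 36.5 against 188, and none was lower.

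Of 16 muscle genes 3 were lower and none higher, near the share of all compared genes past the limit. The flight muscle troponin C gene TpnC4 had signals of 357, 3615, 2558, 521 and 2862, and Mf, which encodes the thick filament protein myofilin, had 370.2, 14329, 3714, 891 and 2374. D. melanogaster and D. pseudoobscura were the low libraries for both. TpnC73F had 44.4 against 8.51. The difference of Mf was near the 4-fold limit, at -2.06, and fell short of it under 3 of the alternatives tried.

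Immune genes went both ways, as did all compared genes, of which 9.01% were higher and 11.9% lower. Of 28 compared, 4 were higher and 5 lower, with a median of -0.33, and the sum was 2477 in D. yakuba and 13424 in D. pseudoobscura. With log2(signal + 5) 3 were higher and 3 lower. Dso1 (listed as IM4; 2R:20868496-20869321), an antifungal peptide gene, had 1268, 10488, 848, 11594 and 10819, most of the list's sum in D. pseudoobscura. D. simulans and both obscura group libraries were high for it, and D. yakuba was the lowest. The antimicrobial peptide gene Mtk and the recognition protein gene PGRP-SB1 were higher too, at 79.4 against 344 and 92.4 against 545. The Toll pathway genes Dif and spz were lower, at 60.7 against 8.55 and 42.2 against 5.94. Of 12 haemocyte genes NimB5 and CG5002 were lower, at 96.4 against 9.54 and 42.3 against 6.57, and none was higher. Haemocyte markers, 6 in number, summed to 489 and 254.

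Fat body and egg genes differed gene by gene. Of 20 fat body and haemolymph genes 4 were higher and 2 lower, beside 9.01% and 11.9% of all compared genes. The yolk protein gene Yp2 had 4856, 11514, 2442, 430.5 and 72.5, lowest in the obscura group, and the female-enriched satiety gene fit had 1076, 22913, 189, 1508 and 1972. Lsp2, a larval serum storage protein, had 453, 10.2, 0.0814, 32.1 and 22.6. D. yakuba was the lowest library for fit and for Lsp2. Chorion genes, whose transcripts mark egg chambers, summed to 48.0 in D. yakuba and 0 in D. pseudoobscura over 4 genes, and the male tract marker Acp53Ea was at 0 in both. The wider egg chamber list summed to 54.8 in D. yakuba and 27.9 in D. pseudoobscura. Of its 4 compared genes 1 was higher and 1 lower. The only 1 above 0 in both libraries was the higher one, with a log2 difference of 2.53. The part of sex or of carried-over tissue in these values was not tested. Of 14 heat shock genes Hsp22 was higher, at 58.8 against 841, and CG4456 was lower, at 30.2 against 5.73. Over all lists, 613 distinct genes were compared, of which 65 were higher, 10.6%, and 78 lower, 12.7%, near the shares of all compared genes. None of 11 housekeeping genes passed 4-fold.

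**Figure D4:**
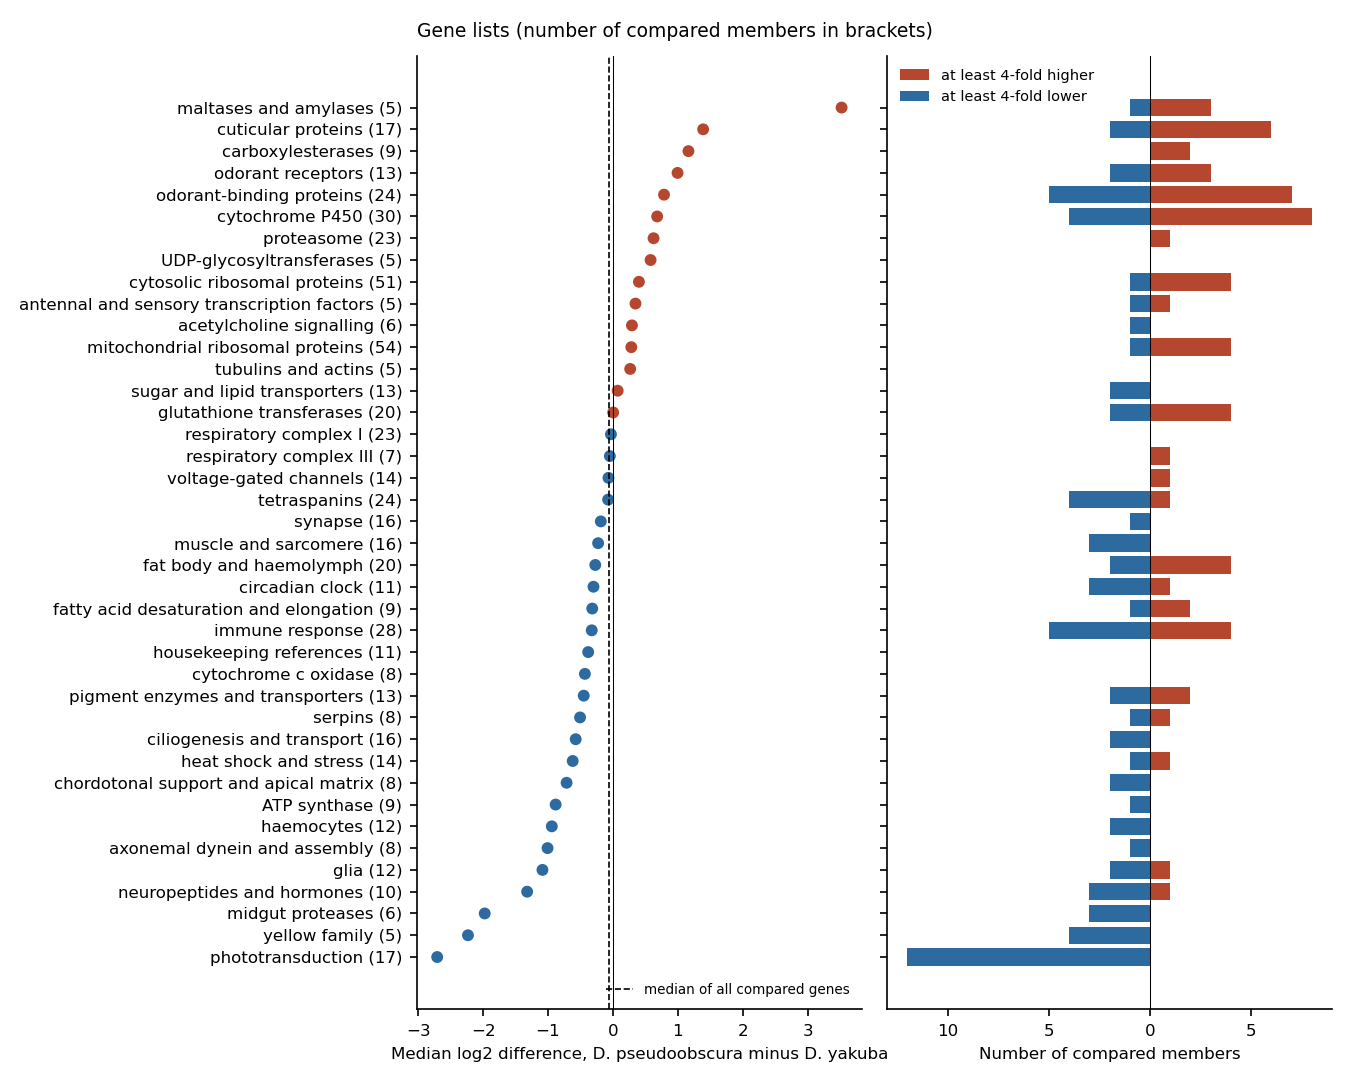
Gene lists with at least 5 compared members, ordered by the median log2 difference between D. pseudoobscura and D. yakuba (left; the dashed line is the median of all compared genes, -0.07). Bars on the right count members at least 4-fold higher or lower. Phototransduction lies at the bottom, with 12 lower of 17, and maltases at the top, with 3 higher of 5. Many medians change sign with the processing, that of the maltases among them (-0.05 with no limit on mean signal).

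The other 3 libraries, which the fold did not use, were each placed with whichever of the compared libraries they were nearer to. They did enter the limit on mean signal, so the placement is not independent of how genes were chosen. A gene low in both compared libraries was kept only where another library was high. The effect of this on the classes was not tested. Genes then split by species group, or 1 of the compared libraries stood alone, or the libraries fell out in another way. Among the higher genes 147 split by species group, 32.7% against 21.2% of all compared genes, and 86 had D. yakuba alone on its side, 19.2% against 14.8%. D. pseudoobscura stood alone in 43, 9.58% against 18.2%. That 18.2% takes in genes equal in the compared libraries, such as the 25 at 0 in both, for which neither is nearer. No higher or lower gene can be of this kind. Among the lower genes 203 split by species group, 34.3%, and 163 had D. pseudoobscura alone, 27.6%. Of these 163, 48 were listed at 0 in D. pseudoobscura. D. yakuba stood alone in 26 of the lower genes, 4.40%. The remaining 173 higher genes, 38.5%, and 199 lower genes, 33.7%, had another arrangement, such as D. melanogaster alone with D. yakuba, as did 45.8% of all compared genes. UGP and Tsp42Ed are examples of the split by species group, Cyp6w1 and RpS27A of D. yakuba alone, and eas and Obp69a of D. pseudoobscura alone.

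D. persimilis was nearer to D. pseudoobscura for 357 of the 449 higher genes, 79.5%, and for 343 of the 591 lower genes, 58.0%, against 60.4% of all compared genes. The share among the lower genes was thus near that of all genes. D. melanogaster was nearer to D. pseudoobscura for 41.4% of the higher and 17.9% of the lower genes, against 39.1% of all. D. simulans was so for 39.9% and 27.4%, against 42.9% of all. In the shares of all genes, those equal in the compared libraries counted as not nearer to D. pseudoobscura.

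**Figure D5:**
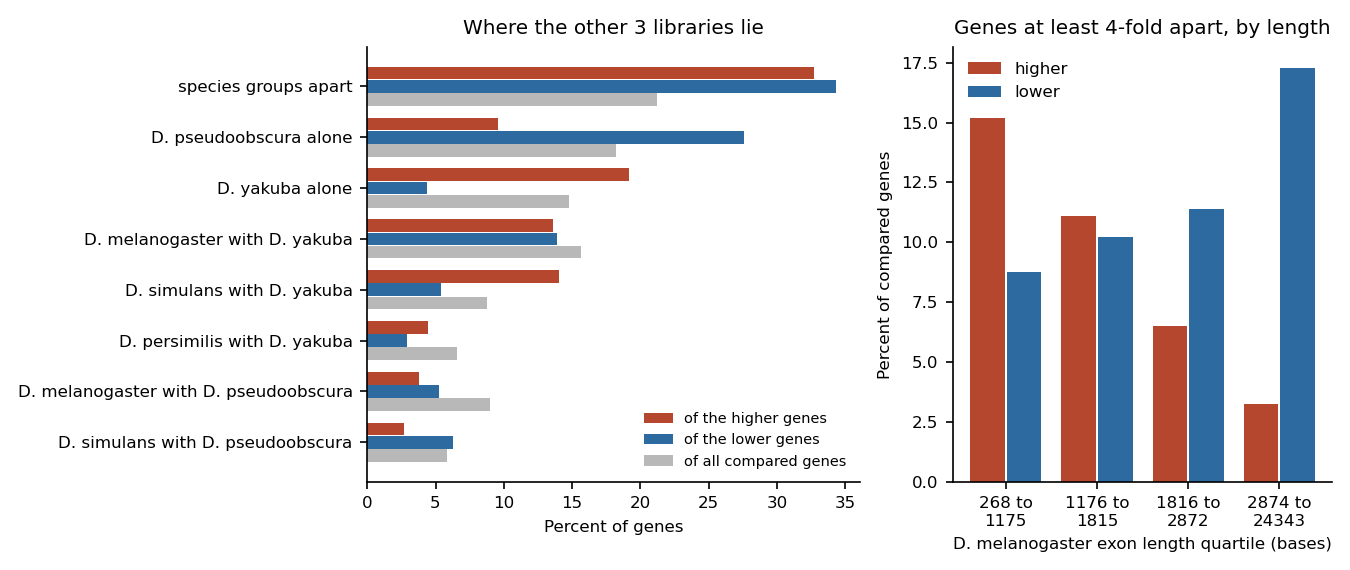
Left, percent of the higher genes, the lower genes and all compared genes in each class given by the other 3 libraries. Right, percent of compared genes higher or lower in each quartile of D. melanogaster exon length. Genes split by species group take 32.7% and 34.3% of the higher and lower genes, and the share of higher genes is smallest in the longest quartile.

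D. persimilis and D. melanogaster are a pair of libraries from the same species groups that share none with the comparison. Both did enter the limit on mean signal. Over all compared genes 25.1% were at least 2-fold higher in D. persimilis than in D. melanogaster and 30.7% at least 2-fold lower. Of the 449 higher genes 250 were also 2-fold higher in that pair, 55.7%, and 61 were 2-fold lower, 13.6%. Of the 591 lower genes 358 were also 2-fold lower, 60.6%, and 74 were 2-fold higher, 12.5%. With the mean taken over the compared libraries alone, 255 of 466 higher and 345 of 552 lower genes moved the same way. The share of all genes past 2-fold in that pair was not computed for this filter, so these counts have no background beside them. The median log2 difference in that pair was 1.18 for the higher genes, -1.49 for the lower genes and -0.14 for all compared genes. Against D. simulans instead, in a pair that shares the D. persimilis library with the one before, 25.9% of all compared genes were higher and 27.7% lower. There 263 of the higher genes were higher, 58.6%, and 319 of the lower genes lower, 54.0%.

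Gene length moved with the comparison. Among the shortest quartile of genes, with 268 to 1175 bases of exon in D. melanogaster, 187 were higher and 108 lower. Among the longest, with 2874 to 24343 bases, 40 were higher and 213 lower. The Spearman correlation between exon length and the log2 difference was -0.24 across 4926 genes, and -0.38 for D. persimilis minus D. melanogaster. Both values use the same lengths and are across genes of the same libraries. With the trend on exon length removed from the comparison, 405 genes were higher and 561 lower. Of these, 200 and 313 moved the same way by 2-fold between D. persimilis and D. melanogaster. The trend on length was removed from that pair as well, and the share of all compared genes past 2-fold in it was then not computed. The part of RNA quality or library preparation in this trend was not tested.

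Genes nearest the limit lay inside or outside it by small margins. BHD, at 11.8 in D. yakuba and 50.3 in D. pseudoobscura, and CG34232, at 4.49 and 20.9, were just inside on the higher side, and hui, at 5.03 and 23.1, and CG11858, at 30.4 and 124, just outside. On the lower side CG2736, at 130.2 and 31.8, and CG17568, at 14.4 and 2.85, were just inside, and Ctr9, at 14.3 and 2.84, and CG11760, at 45.9 and 10.8, just outside.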

How the data were processed

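The deposited count values are reads per gene of each species' own annotation, per the labels, and were used for depth only, since their identifiers are not paired with names here. Per the submitters' processing notes the tools were TopHat2 2.0.3 and HTSeq, whose roles are not stated. The deposited signal is that of a table by the authors with 8180 genes and a column per species. Its scale is not described, but the 75th percentile was 34.3366 in both compared columns. The signal was used as deposited. The sources used here do not give the strand or multiple-mapping settings, nor how genes were matched between species.

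Differences are of log2(signal + 1), which understates those of low genes. The comparison took genes whose mean was 5 or more, and its limit was 4-fold. Symbols were matched to the BDGP6 annotation (6465 by current and 1622 by older symbol, of which 30 share an identifier), which gave coordinates, exon lengths and overlaps. Lists may share genes. The members and lists were chosen with earlier results of these data known. Genes were named by rule: the 15 largest differences in each direction, the 8 most abundant, the 6 largest at 0 in 1 library, up to 6 members per list, all hearing genes, and those nearest the limit. Of these, the ones with a known role or pattern are described. Other pseudocounts, filters, scalings and fold limits are given in the closing section. The code was run on the D. yakuba values with known fold changes put in and no noise added. Its outcome follows from the rule, so it checks the code and not the calls made here. Python 3.11.15, pandas 2.3.3, numpy 2.4.6, scipy 1.17.1, statsmodels 0.14.6 and matplotlib 3.10.9 were used.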

Additional observations from a re-analysis of the deposited data

How the results depend on the processing

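The counts of 449 higher and 591 lower genes, of 250 and 358 among them that moved the same way between D. persimilis and D. melanogaster, and of 143 listed genes past 4-fold moved by over 1.5 times under few alternatives. With log2(signal + 5) they were 280, 284, 171, 173 and 94, and requiring a mean of 20 or more gave 274, 244, 185, 155 and 93. At 2-fold 1122 genes were higher and 1289 lower, and at 8-fold 179 and 284. With equal column totals 393 were higher and 709 lower, and the median of all compared genes moved from -0.07 to -0.25. The higher share of the genes past the limit fell from 43.2% to 35.7%. With a mean of 20 or more that share was 52.9%. Under equal totals 149 of the higher and 528 of the lower genes moved the same way in the other pair. The deposited totals of that pair were 1153610 in D. persimilis and 630196 in D. melanogaster, so this scaling lowers D. persimilis relative to D. melanogaster. The share of all compared genes past 2-fold in the pair was not computed under it. Requiring 4-fold in the other pair left 151 of the higher genes. Multiplying all columns by 1.09 gave 466 and 616. Of 591 values for 55 named genes, 586 kept their side of the limit, 5 fell short of it (Mf under 3 alternatives, Obp28a and OS9 without the exon length trend) and 0 changed sign. These genes were chosen from the same values, for a large difference or a high signal among genes past the limit. The count thus follows largely from that choice and says little of the other genes. Phototransduction, yellow family, glial, haemocyte and ATP synthase medians stayed below 0 under every alternative tried. This was not particular to them, as the housekeeping median did so too, at -0.56 to -0.20. The same held for the heat shock, immune, cytochrome c oxidase, serpin, midgut protease, neuropeptide and pigment medians. Carboxylesterase, UDP-glycosyltransferase and proteasome medians stayed above 0. No paired analysis was possible because each species has 1 library, which also leaves no replicate to omit.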

Other observations

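On the chromosome arms of D. melanogaster, the share of higher genes ran from 8.53% on 2L to 9.73% on 2R among the 5 large arms. The share of lower genes was 14.1% on X and 13.7% on 3L, and 10.9% to 11.3% on 2L, 2R and 3R. On the small chromosome 4, 5 of 36 compared genes were lower, 0 were higher, and the median log2 difference was -0.84. The median was -0.0025 on 3L and -0.12 on X, and -0.08 to -0.03 on 2L, 2R and 3R. The arm matching 3L is part of the X chromosome in D. pseudoobscura, and whether this bears on the shares was not tested.

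Among 3467 pairs of compared genes that lie next to each other within 10 kb in D. melanogaster, both genes were higher in 36, both were lower in 39, and they went opposite ways in 60. In 1108 pairs only 1 of the genes passed the limit. Over all compared genes 9.01% were higher and 11.9% lower. Whether neighbours moved together more often than other pairs of genes was not tested. Obp58b, Obp58c and Obp58d, with gaps of 233 and 256 bases, were all higher, as were Mal-B1 and Mal-B2, with a gap of 789. Arr1 and ninaD, with a gap of 321, were both lower. Cyp309a1 was higher, at 2.17 in D. yakuba and 31.5 in D. pseudoobscura, and Cyp309a2, 56 bases away, was lower, at 3.56 and 0.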
